A study of Mus musculus with 7 samples.

Results

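Myoglobin and carbonic anhydrase 3 were followed across the soleus muscles of 7 mice without tenascin-C, a glycoprotein of the extracellular matrix and the product of Tnc. The probes were taken by gene symbol from the platform annotation, and each gene had 1 probe, Mb (Entrez 17189, probe 10N) and Car3 (Entrez 12350, probe 23N). They are 2 of the 203 genes named on an array of 223 probes. The rule itself reads only gene symbols, although the pair was proposed with earlier results of these data known. The animals were 129/SV mice kept as cage controls, and all 7 form 1 group with the same null genotype. No array from a mouse with intact Tnc was analysed here, so no effect of the missing gene on either transcript can be estimated. The sources used here state neither the sex and age of the mice nor the kind of Tnc deletion. Replicate numbers follow accession order and serve as names only. The title of replicate 1 holds the code C16 and those of the others C15, with no meaning given.

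Myoglobin is the oxygen-binding haem protein of striated muscle, which stores oxygen in the fibre and eases its passage to the mitochondria. Carbonic anhydrases interconvert carbon dioxide and bicarbonate, and carbonic anhydrase 3 is the abundant cytosolic form of skeletal muscle, with low catalytic activity. Both are known for high expression in slow oxidative fibres, which make up much of the soleus. Car3 is also highly expressed in fat cells, whereas Mb is largely restricted to muscle.

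Signals are given as percent of the array's summed signal. The authors' values sum to between 0.998 and 1.0 on each array when the 28S rRNA probe and 1 unnamed bright probe are set aside, so each value is a share. The floor of an array is its 10th percentile, and a probe above 3 times the floor is called detected. Replicate 3 stood apart from the other mice over the whole array. On that array 29 probes were detected, against 42 to 70 on the others, its median probe read 0.18% against 0.07% to 0.13%, and its floor was 0.15% against 0.04% to 0.08%. Each result is therefore given with and without it.

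Mb was among the brightest probes in 6 of the 7 muscles and differed little between those mice. It read 7.61%, 7.39%, 7.23%, 9.17%, 7.67% and 8.67% in replicates 1, 2, 4, 5, 6 and 7, and 0.32% in replicate 3. The 6 high values lay within a 1.27-fold range, and the value of replicate 3 lay far below all of them. The mean was 7.96% ± 0.78 without replicate 3 (SD, n = 6) and 6.87% ± 2.97 with it (SD, n = 7). Replicates 5 and 7 had the highest readings and replicate 4 the lowest of the 6. The probe stood 90.4 to 217 times above the floor on these 6 arrays and 2.13 times above it in replicate 3, where it was not detected.

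Car3 was detected in the same 6 muscles but varied more between them. It read 0.88%, 0.89%, 1.10%, 1.74%, 2.21% and 1.74% in replicates 1, 2, 4, 5, 6 and 7, and 0.22% in replicate 3. The 6 values spanned a 2.52-fold range, with replicates 1 and 2 lowest and replicate 6 highest. The mean was 1.43% ± 0.55 without replicate 3 (SD, n = 6) and 1.26% ± 0.68 with it (SD, n = 7). The probe stood 13.8 to 44.3 times above the floor on the 6 arrays and 1.47 times above it in replicate 3. The Car3 value of replicate 6 is the only 1 of the 1561 deposited values recorded with more than 4 decimals, and how it was obtained is not stated. All other values come in steps of 0.01%, a step that equals 1.14% of the lowest Car3 value among the 6 arrays and 0.138% of the lowest Mb value.

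**Figure D1:**
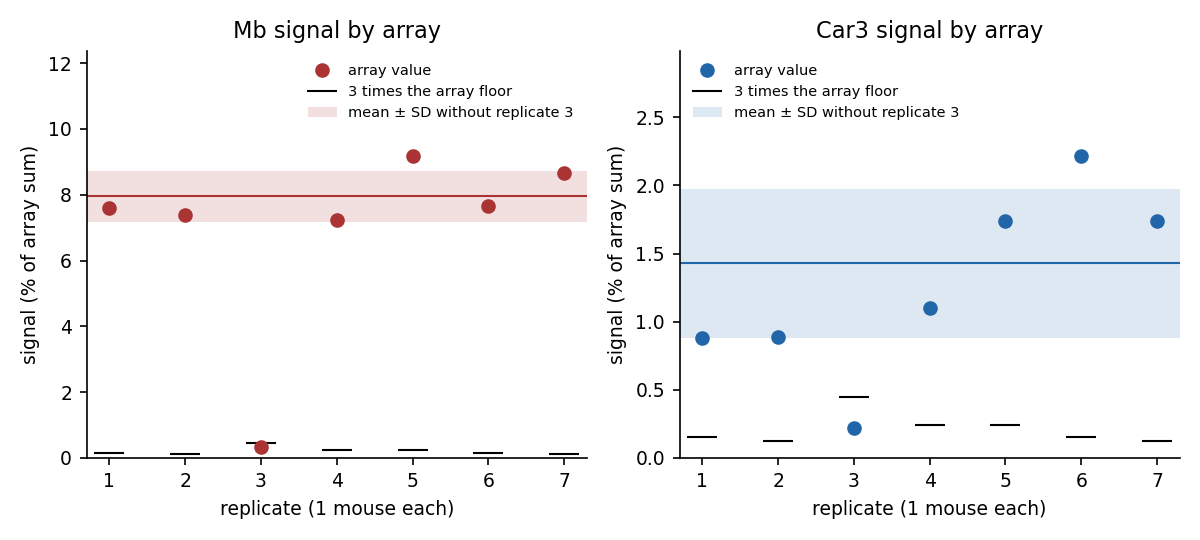
Signal of Mb (left) and Car3 (right) in percent of the array sum for each of the 7 replicates, 1 mouse each, on linear axes from 0. Points are single arrays, the line and band are the mean ± SD of the 6 arrays other than replicate 3, and short black bars mark 3 times the floor of each array. Mb lies between 7.23% and 9.17% and Car3 between 0.88% and 2.21% on the 6 arrays, and in replicate 3 both lie under the bar.

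The order of the mice differed between the genes. For Mb it ran from replicate 5 through 7, 6, 1, 2 and 4 to 3, and for Car3 from replicate 6 through 5 and 7, which tied, to 4, 2, 1 and 3. Each mouse has 1 array, so neighbours in these orders have no error of their own. The gap between the Car3 values of replicates 1 and 2 was 1 recording step.

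The rank of a signal on its array places these probes among the 221 that make up the array sum. Primers and probes differ in yield, so a rank orders signals and not transcript numbers. Mb ranked 5, 5, 4, 2, 3 and 4 in replicates 1, 2, 4, 5, 6 and 7 and 45 in replicate 3. Car3 ranked 17, 16, 19, 14, 10 and 15 on the same 6 arrays and 76 in replicate 3. By mean signal over the 6 arrays Mb came 4th, between Myh7, the slow myosin heavy chain, at 9.71% and Cox6a2, the muscle form of a cytochrome oxidase subunit, at 6.43%. Mb read below Myh7 on all 7 arrays and above Cox6a2 on 4 of the 6, the exceptions being replicates 1 and 2. Car3 came 15th, between Ldhb, the heart-type lactate dehydrogenase subunit, at 2.03% and Il6st, the signal-transducing chain of IL-6 type receptors, at 1.29%. Car3 read above Ldhb on 2 and above Il6st on 4 of the 6 arrays, so its place there was not the same from mouse to mouse. Over all 7 arrays Mb again came 4th, and Car3 came 17th, between Il6st and Pecam1, an endothelial adhesion molecule that read below Car3 on all arrays but replicate 3.

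In replicate 3 neither gene was detected, with readings of 2.13 times the floor for Mb and 1.47 times for Car3. The mean of the other 6 arrays was 24.9 times the replicate 3 value for Mb and 6.49 times for Car3. On the log2 scale the differences were 4.63 for Mb and 2.61 for Car3. Replicate 3 read below every other array for 14.3% of all 223 probes, and for 81.6% of the 38 probes detected on each of the other 6. These 38 were picked for a high signal on the other arrays, which favours a low place for replicate 3, and 9 probes were detected on all 7. Over the 38 probes the median log2 difference was 1.83, and Mb had the 3rd largest and Car3 the 15th. Since neither gene was detected in replicate 3, whose floor was also the highest, these differences do not measure the transcript there. With 1 such array there is no replicate check, and the cause was not tested.

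The next question was how much each gene varied between mice for its level. With 1 array per mouse and 1 probe per gene, every spread given here also holds measurement error. Over all 7 arrays the SD of log2 signal was 1.75 for Mb and 1.11 for Car3. What is called the limma variance test here is an F test built on limma's fit, not a test that limma supplies. It sets each probe's variance against limma's robust trend over the mean level. The trend SD was 1.65 at the level of Mb and 0.97 at that of Car3. Both SDs lay slightly above the trend, and neither passed the test (limma adjusted p = 0.885 for both). The test called 0 of 223 probes (0.0%) at an adjusted p under 0.05 and 17 (7.62%) at an unadjusted p under 0.05, and neither member was among the 17. On simulated data over 7 arrays this test recovered 0% of probes given 4 times the trend SD and 45% of those given 16 times. A missed call is therefore little evidence of an ordinary spread. Without replicate 3 the trend SD at the same probes was 0.44 and 0.39, so over 7 arrays a deviation that bright probes had in common formed part of the trend.

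Without replicate 3 the 2 genes lay on opposite sides of the trend on the deposited scale. The SD of log2 signal was 0.14 for Mb against a trend SD of 0.44, and 0.57 for Car3 against 0.39. A deviation of 1 SD was thus 1.10-fold for Mb and 1.48-fold for Car3. Among the 38 probes detected on these arrays 2 varied less than Mb, namely Cox4i1, a subunit of cytochrome c oxidase, with 0.11 and Pgk1, a glycolytic enzyme, with 0.12. By contrast 31 varied less than Car3, and the median SD of the 38 was 0.34. When the 6 arrays were median-centred both genes lay under the trend, Mb with 0.38 against 0.73 and Car3 with 0.53 against 0.60. Then 10 of the 38 varied less than Mb and 16 less than Car3. The limma variance test called 5 probes of 223 (2.24%) and had 22 (9.87%) at an unadjusted p under 0.05, with neither member among them (limma adjusted p = 0.994 for Mb and 0.949 for Car3). The test is one-sided and looks for a spread above the trend, so it says nothing on the low spread of Mb.

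**Figure D2:**
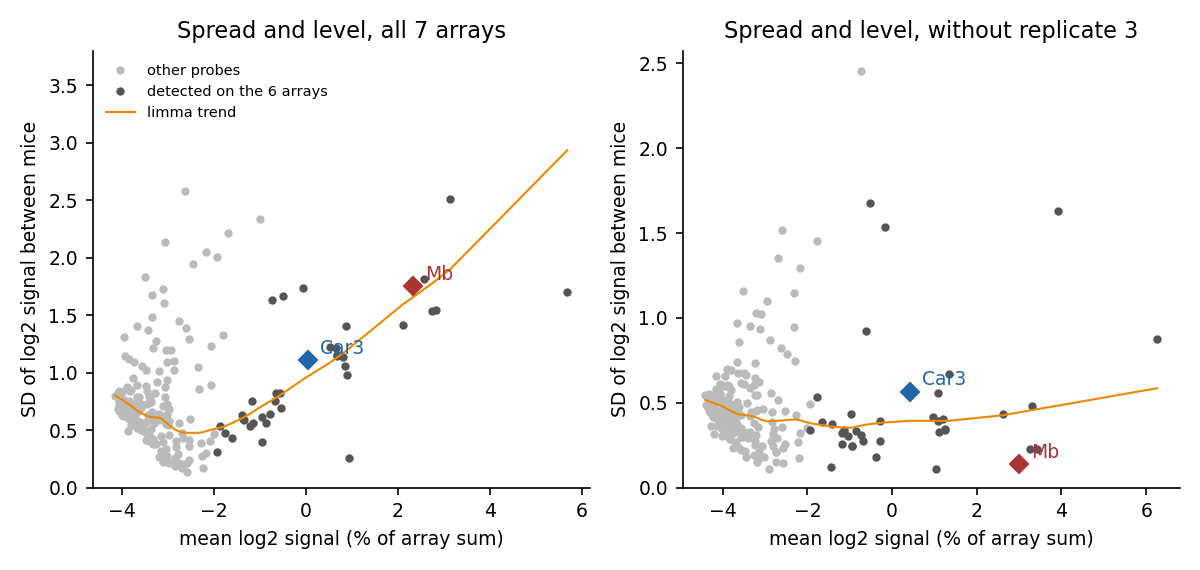
SD of log2 signal between mice against mean log2 signal for all 223 probes, over all 7 arrays (left) and without replicate 3 (right). Dark points are the 38 probes detected on each array but replicate 3, the orange line is the limma trend, and diamonds mark Mb and Car3. Without replicate 3 Mb, with an SD of 0.14, lies under the trend and Car3, with 0.57, above it on the deposited scale shown.

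The spreads of the 2 genes were then compared directly with the Pitman-Morgan test, which asks whether the sum and the difference of paired log2 values are correlated. Its permutation p is exact for independence of sum and difference, which equal spread ensures only for normally distributed values. Over the 6 arrays other than replicate 3 the correlation was 0.92, with Car3 the more variable (exact two-sided permutation p = 0.00556 over 720 pairings). Adjusted over the 6 tests made on this pair, p was 0.0333. Over all 7 arrays the larger spread was that of Mb, and the test did not pass (r = -0.74, exact two-sided permutation p = 0.142, adjusted p = 0.213). The result over 6 arrays also depended on the scale. When each array was centred on its median probe, the SDs were 0.38 for Mb and 0.53 for Car3 and the test no longer passed (r = 0.35, exact permutation p = 0.542). Centring on the 38 detected probes gave SDs of 0.34 and 0.48 (r = 0.34, exact permutation p = 0.538). After quantile normalization the SDs were 0.12 and 0.53 and the unadjusted p stayed under 0.05 (r = 0.95, exact permutation p = 0.00417). Without replicate 6 the SDs were 0.15 and 0.49 and even the unadjusted p was above 0.05 (r = 0.96, exact permutation p = 0.0667, n = 5). Leaving out any other of the 6 arrays gave an unadjusted p of 0.0167 or 0.0333 (exact permutation, n = 5). None of these alternative p values was adjusted over the 6 tests, so they do not show that the adjusted call holds without 1 array.

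The difference between the 2 log2 signals within an array is the same under any scaling by a single factor per array. Car3 minus Mb was -3.11, -3.05, -2.72, -2.40, -1.79 and -2.32 in replicates 1, 2, 4, 5, 6 and 7 and -0.54 in replicate 3. It was lowest in replicates 1 and 2 and highest, among the 6, in replicate 6. The mean over the 6 arrays was -2.57 ± 0.50 (SD, n = 6), and the extremes lay 2.50-fold apart. Over all 7 arrays it was -2.28 ± 0.89 (SD, n = 7). The value of replicate 3 joins 2 readings near background and carries no ratio of transcripts. Such a ratio within an array shows unequal change of the 2 signals between arrays and does not tell which of them changed. With 1 probe per gene and 1 array per mouse, measurement error cannot be told apart from a difference between mice.

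Whether the genes moved together was tested across mice. Over all 7 arrays Pearson's r of the log2 signals was 0.90 (exact two-sided permutation p = 0.0214 over 5040 pairings, adjusted p = 0.0643, which did not pass) and Spearman's rho was 0.74 (exact permutation p = 0.0706, adjusted p = 0.141). When replicates 3 and 5, whose Mb values lay farthest from the median, were dropped, r was 0.54. Dropping replicate 3 only gave r = 0.58 (exact permutation p = 0.283, adjusted p = 0.283, n = 6) and rho = 0.58 (exact permutation p = 0.233, adjusted p = 0.280). Without replicates 5 and 7 as well, r was 0.47. The relation over 7 arrays thus rested on replicate 3, and among the other 6 mice no relation passed the test. Both values come from the same array and are shares of 1 sum.

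**Figure D3:**
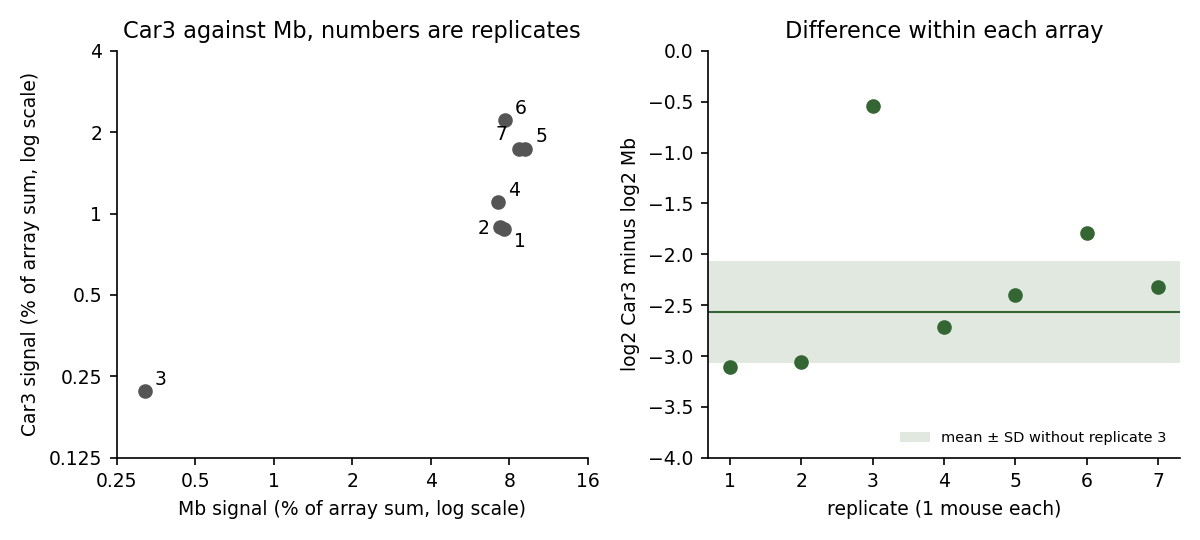
Left, Car3 against Mb signal in percent of the array sum, both on log axes, with points numbered by replicate. Right, log2 Car3 minus log2 Mb for each replicate, with the mean ± SD of the 6 arrays other than replicate 3 as line and band. Replicate 3 lies at the lower left, and among the other 6 points Car3 spans 0.88% to 2.21% over a narrow range of Mb.

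The 6 remaining arrays split by their 28S rRNA signal, which was 3.48% and 3.79% of the array sum in replicates 1 and 2 but 24.1% to 49.7% on the 4 others. The 28S probe lies outside the sum. Car3 followed this split, with 0.88% and 0.89% in the former and 1.10% to 2.21% in the latter, a mean of 1.70% ± 0.46 (SD, n = 4). Mb did not, since its 7.61% and 7.39% lay within the range of 7.23% to 9.17% of the latter, whose mean was 8.19% ± 0.89 (SD, n = 4). Of all 223 probes 30.0% had both values of the low-28S pair under all 4 values of the other set, and of the 38 detected probes 34.2% did so, Car3 among them. Its position in the split was therefore shared by many probes. Within replicates 4 to 7 the SD of log2 signal was 0.16 for Mb and 0.42 for Car3. With 2 and 4 arrays no relation between the genes was tested within either set. Whether the 28S signal has a part in the spread of Car3 was not tested.

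Genes of slow and fast fibres were set beside both members, since Mb and Car3 are known as genes of slow fibres. The list of slow-fibre contractile genes had 1 probe, Myh7, of 10 genes listed, and that of fast-fibre genes had 3 of 12. In replicates 1, 2, 4, 5, 6 and 7 Myh7 read 8.91%, 9.76%, 7.98%, 12.8%, 9.07% and 9.72%. Its lowest and highest reading among these mice fell in replicates 4 and 5, as for Mb. Myh1, the fast heavy chain of type IIx fibres, read 4.41%, 4.20%, 1.71%, 1.40%, 2.62% and 2.32% on the same arrays. Myh2, that of type IIa fibres, ran from 1.92% to 2.46% in replicates 4 to 7 and stood at 3.20% and 3.08% in the other pair. Myh4, that of type IIb fibres, ran from 0.53% to 0.91% and stood at 1.16% and 0.99%. Each of replicates 4 to 7 thus read lower than both replicates 1 and 2 for all 3 fast chains, and higher for Car3, on the deposited scale. Neither Myh7 nor Mb was split in this way. The readings of Myh7 in replicates 1 and 2 lay within the range of replicates 4 to 7. The pattern of the fast chains was that of 4.48% of all probes and of 15.8% of the 38 detected ones. The part of fibre makeup in the Car3 signal was not tested, and in whole muscle fewer fibres of a type and less RNA per fibre cannot be told apart. The variance test called none of these 4 probes with or without replicate 3. The median SD of log2 signal was 1.06 for the fast list, against 0.69 for all probes, over 7 arrays, and 0.39 against 0.44 without replicate 3. For Mb and Car3 together it was 1.43 and 0.35. Being the midpoint of 2 values it describes neither gene, since without replicate 3 the SD was 0.14 for Mb and 0.57 for Car3.

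The respiratory chain list, which stands for the consumers of the oxygen that myoglobin supplies, had 3 probes of 23 genes listed. Cox4i1 read 2.06%, 1.92%, 1.87%, 2.05%, 2.25% and 2.23% in replicates 1, 2, 4, 5, 6 and 7 and 1.32% in replicate 3. It was thus about as even between the 6 mice as Mb, and it was still detected in replicate 3. Cox5b read 1.5% to 2.69% and Cox6a2 4.02% to 9.09% on the 6 arrays. Cox6a2 was highest in replicates 1 and 2, at 9.09% and 8.46%, where Car3 was lowest. The variance test called 0 of the 3 probes with or without replicate 3.

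Regulators of the oxidative fibre programme and of the response to hypoxia had 12 probes of 24 genes listed, and 1 of them was detected on all 6 arrays. This was Mef2c, a transcription factor of muscle genes, at 0.64% ± 0.13 (SD, n = 6). Srf, another factor of muscle gene promoters, read 0.17% ± 0.044 (SD, n = 6) and was detected on 2 arrays. Myod1, the myogenic factor, read 0.04% to 0.12% on the 6 arrays and was detected only in replicate 3, at 3.11%. Hif1a, the oxygen-regulated factor, read 0.072% ± 0.015 and Tfam, a mitochondrial transcription factor, 0.073% ± 0.029 (SD, n = 6), and neither was detected on any array. Apart from Mef2c the levels of these regulators on the 6 arrays were too close to background to set beside those of Mb and Car3. The variance test called none of the 12 on either set of arrays, and 1, Myod1, had an unadjusted p under 0.05 over all 7.

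No other gene of oxygen or carbon dioxide binding could be followed. Of 19 genes listed, among them the other carbonic anhydrases, the haemoglobin chains, cytoglobin and neuroglobin, only Mb and Car3 had a probe. The blood marker list had none either, so blood in the sections was not measured. Because Car3 is also a gene of fat cells, fat cell markers were examined, and 3 of 8 had a probe. Fabp4, the fatty acid-binding protein of adipocytes and endothelium, read 0.42%, 0.34%, 0.38%, 0.51%, 0.47% and 0.66% in replicates 1, 2, 4, 5, 6 and 7 and 0.18% in replicate 3. Lipe, hormone-sensitive lipase, read 0.04% to 0.09% and Pparg, a regulator of fat cell formation, 0.04% to 0.09% on the 6 arrays, and both were detected on none. The summed signal of the 3 ran from 0.43% to 0.78%, with no value at 0. Fabp4 was highest in replicate 7, whereas Car3 was highest in replicate 6. Each of replicates 5, 6 and 7 read higher than each of replicates 1, 2 and 4 for Fabp4, for Car3 and also for Mb. The part of fat cells in the Car3 signal was not tested. Markers of endothelium, leukocytes and fibroblasts had 5, 1 and 3 probes, with summed signals of 0.45% to 1.27%, 0.04% to 0.09% and 0.24% to 0.34% on the 6 arrays. In replicate 3, where neither Mb nor Car3 was detected, the endothelial sum was 9.5%, with Pecam1 at 8.36% and Cdh5, a cadherin of endothelial junctions, at 0.60%, both detected. The other 3, Flt1, Kdr and Tek, read 0.22%, 0.16% and 0.16% there and were not detected. The leukocyte and fibroblast sums were 0.17% and 0.49%. The part of other cell types in the replicate 3 values was not tested.

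The probes with the pattern most like each member were found by Pearson's r of log2 signals over arrays, as a description. Over all 7 arrays the closest to Mb were Myh7 with r = 0.998, the glycolytic enzyme gene Aldoa with 0.981, Lpl, lipoprotein lipase, with 0.974, Pgk1 with 0.973 and Cox5b with 0.968. Car3 came 17th with 0.902, and the median over other named probes was -0.75. These values mainly record which probes read low in replicate 3. Without it the closest to Mb were Timp3, an inhibitor of matrix proteases, with 0.935, Mdh2, mitochondrial malate dehydrogenase, with 0.852, Myh7 with 0.843, Cd34, a marker of endothelial and progenitor cells, with 0.813 and Fabp4 with 0.797 (6 arrays). Timp3 and Cd34 were detected on 2 and 1 of the 7 arrays, so their likeness rests on readings near background. Myh7 was the only gene among the closest 5 on both sets of arrays. Mdh2 read 0.52%, 0.40%, 0.50%, 0.64%, 0.48% and 0.61% on the 6 arrays, with replicates 5 and 7 highest, as for Mb.

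For Car3 the closest over all 7 arrays were Hadh with 0.964, Cox4i1 with 0.952, Lpl with 0.939, Fabp4 with 0.929 and Fabp3, the heart-type fatty acid-binding protein, with 0.923, and Mb came 7th. Without replicate 3 they were Srf with 0.863, Itgb5, an integrin subunit, with 0.837, Hadh with 0.831, Acadm with 0.814 and Ccna1, cyclin A1, with 0.798 (6 arrays), and Mb came 32nd with 0.582. Srf and Itgb5 were detected on 2 arrays each. Ccna1 was detected in replicates 4 to 7 but not in replicates 1 and 2, where it read 0.09% and 0.08%. Hadh and Acadm encode mitochondrial enzymes of fatty acid oxidation. Hadh read 0.51%, 0.46%, 0.63%, 0.57%, 0.85% and 0.65% on the 6 arrays and was detected on each. Acadm read 0.17%, 0.13%, 0.24%, 0.24%, 0.30% and 0.21% and was so on 4. Both were lowest in replicates 1 and 2 and highest in replicate 6, as was Car3, and all 3 thus follow the 28S split on the deposited scale. Hadh was the only gene among the closest 5 on both sets of arrays. All probes share the arrays and their fixed sum, and the closest 5 were picked from 204 other named probes, so these values describe the arrays and carry no p.

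**Figure D4:**
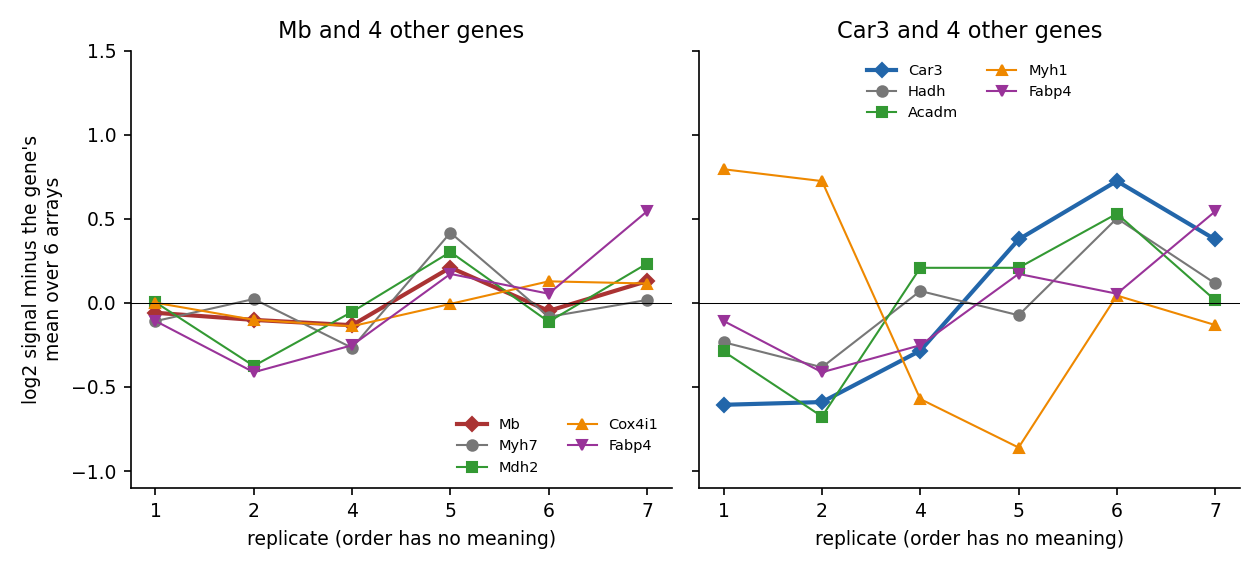
Log2 signal minus the mean of the same gene over the 6 arrays other than replicate 3, for Mb with Myh7, Mdh2, Cox4i1 and Fabp4 (left) and for Car3 with Hadh, Acadm, Myh1 and Fabp4 (right). Lines join the arrays of a gene only to guide the eye, since replicates have no order. Mb stays near its mean, Car3 is lowest in replicates 1 and 2 and highest in replicate 6, and Myh1 is highest in replicates 1 and 2.

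The signal of the targeted gene could not check the labels. The Tnc probe read 0.08% to 0.18% and was detected on no array. It shared this with many probes, since 127 of the 223 were detected on none. With no array of a mouse with intact Tnc, such a reading does not tell a missing gene from a dim probe. The sources used here do not place that probe inside or outside the deletion.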

How the data were processed

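Soleus RNA of 7 Tnc-deficient mice was measured on 1-channel arrays. Per the labels' protocols, 4 µg of total RNA was reverse transcribed with gene-specific primers and a radioactive nucleotide. The deposited values are linear spot intensities that the authors scaled to a sum near 1 per array. The scanner, software and any background subtraction are not stated. Probes were named through the supplied platform annotation, where 205 of 223 had 1 symbol, 18 none and 0 several.

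The members, gene lists and detection criterion were chosen with earlier results of these data known. Named genes are both members, the 5 probes most like each on both sets of arrays, neighbours in mean signal, Tnc, 28S rRNA, members of the oxygen, fibre-type and fat cell lists, and the 3 brightest of both the respiratory and the regulator list. Hif1a, Tfam and the endothelial genes were named after their values were seen.

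Log2 values were analysed without further scaling with limma 3.58.1 in R 4.3.3, by an intercept-only fit over all probes (6 residual degrees of freedom) and a one-sided F test against a robust trend, with Benjamini-Hochberg adjustment at 0.05. Pair tests used exact permutation in Python 3.11.15. Both were tested on simulated data, where the limma test recovered few of the probes given 4 times the trend SD. Alternatives were quantile normalization, median-centring, a pseudocount of 0.05%, a filter on dim probes (166 kept), a fit without trend, and leaving out each replicate. Linear values were used for the correlation of the pair only, and the variance test was not run on them. Averaging replicates 1 and 2, whose log2 signals correlated with r = 0.992 across probes, and the alternatives run over the 6 arrays other than replicate 3 alone were added after seeing the data. The number of arrays limits the precision.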

Additional observations from a re-analysis of the deposited data

Results flagged for a closer look

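Both genes had 1 reading far outside the rest over 7 arrays on the log2 scale, by Dixon's ratio of the outermost gap to the range. The ratio was 0.929 for Mb and 0.600 for Car3, against a critical value of 0.568, each time because replicate 3 was lowest. Chance alone passes that value in about 1 of 20 groups, and 6 groups of values were examined. Car3 minus Mb had 0.487 with replicate 3 highest. Without replicate 3 the ratios were 0.236 for Mb, 0.261 for Car3 and 0.397 for their difference, under the critical value of 0.625 for 6 arrays.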

How the results depend on the processing

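No paired analysis was possible because all 7 samples form 1 group. The mean shares moved by less than 1 SD under each alternative run, from 6.34% to 7.96% for Mb and from 1.10% to 1.43% for Car3, and neither member was called by the variance test under any alternative (limma adjusted p from 0.806, without trend and robustness, to 1.0 for Mb and from 0.870 to 0.967 for Car3). Leaving out each replicate gave an SD of log2 signal of 0.14 to 1.90 for Mb, 0.57 to 1.22 for Car3 and 0.50 to 0.98 for their difference, the lowest each time without replicate 3. The correlation of the pair then ran from 0.58, without replicate 3, to 0.94, and it was 0.44 without replicate 3 and median-centred (exact permutation p = 0.400). The Pitman-Morgan r ran from -0.86 to 0.92, and only leaving out replicate 3 turned its sign. Over the 6 arrays it ran from 0.90 to 0.96 when each further replicate was left out. Unadjusted p was then 0.0667 without replicate 6 and 0.0167 or 0.0333 without each other one (exact permutation, n = 5). With median-centring of the 6 arrays r was 0.35, and with centring on the 38 detected probes 0.34, with p up to 0.542. Unadjusted exact permutation p was 0.00417 with quantile normalization, 0.00556 with the pseudocount and 0.0167 with replicates 1 and 2 averaged (n = 5). Unlike the main call, these alternatives were not adjusted over the 6 tests on the pair. The correlation over the 6 arrays passed under none of its alternatives (exact permutation p up to 0.496, lowest 0.10). The median probe lay 1.2 to 2.0 times above the floor, so median-centring scales each array by readings near background. Leaving out each replicate gave 0 to 5 probes called by limma, and 10 without replicate 3 and with replicates 1 and 2 averaged. The other alternatives gave 0. The small number of arrays and the readings of both genes near background in replicate 3 limit every statement on spread.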
